A study of Mus musculus with 12 samples.

Results

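The nuclear genes for respiratory complexes II to V, with cytochrome c, were followed in heart muscle cells of mice with and without desmin, the intermediate filament protein that links the contractile apparatus of cardiomyocytes to their mitochondria and membranes. Members were taken by symbol alone: every gene whose name began with Uqcr, Atp5 or Cox4 to Cox8, the Sdha to Sdhd genes, Cyc1 and Cycs. This gave 49 of the 21493 genes counted. Complex II held 4 of them, complex III 9, complex IV 17 and complex V 17. Cytochrome c was 1 gene, Cycs, and the last, Cox7a2l, is not a subunit but a factor that joins complexes III and IV into supercomplexes. After a filter on low counts 46 members were tested. The other members, Cox6b2, Cox7b2 and Cox8c, are isoforms of complex IV subunits, and they held 88, 6 and 1 reads in all 12 libraries together.

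Complex II, succinate dehydrogenase, oxidises succinate and passes the electrons to ubiquinone. Complex III hands them to cytochrome c, complex IV transfers them to oxygen, and complexes III and IV pump protons whose return through complex V, the ATP synthase, drives ATP production. In heart muscle, which depends on this process for nearly all of its ATP, several small subunits of complex IV exist as a heart and muscle isoform and a ubiquitous isoform encoded by separate genes. Subunits encoded in mitochondrial DNA were not analysed here.

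Poly-A RNA was sequenced from cardiomyocytes that had been freed from the hearts of 3-month-old mice by perfusion with trypsin and collagenase D and harvested at once. The 4 groups of 3 libraries were Des+/+ mice that had not swum (Des+/+ non-swim), Des+/+ mice that had undergone swimming exercise (Des+/+ swim), and Des-/- mice without (Des-/- non-swim) and with swimming (Des-/- swim). Each library was made from the pooled cells of several mice, as the methods of the study describe, so the spread between replicates is one between pools. The methods also describe mice under these genotype names as carriers of a GFP reporter driven by the alpha myosin heavy chain promoter, which the sample labels do not name.

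Reads in genes ranged from 4320819 to 12072443 per library. Desmin itself ranged from 973 to 3647 CPM (the count of a gene scaled to the size of its library) in Des+/+ libraries and from 50.3 to 101 CPM in Des-/- libraries, so the labels and the targeted gene went together. All 14 genes of a list of sarcomere transcripts, which mark cardiomyocytes, were detected in each library. Their summed level ran from 61495 to 100220 CPM in Des+/+ non-swim, 32972 to 55589 in Des+/+ swim, 7912 to 30361 in Des-/- non-swim and 20002 to 31250 CPM in Des-/- swim libraries. The third Des-/- non-swim replicate stood apart at the lowest of these values. It also held the highest fibroblast sum, 44619 CPM, and the highest macrophage sum, 5591 CPM.

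The most abundant members coded for the ATP synthase and complex IV. In Des+/+ non-swim libraries the summed level was 17900 ± 2467 CPM (SD, n = 3) for complex V, 6395 ± 1101 for complex IV, 5542 ± 912 for complex III, 2916 ± 405 for complex II and 196 ± 17.9 for cytochrome c. All members together took 2.97% ± 0.257 (SD, n = 3) of the reads in genes there. Per kilobase of merged exon length, Atp5a1 led at 1567 CPM per kb in this group, followed by Atp5b (1279), Cox6a2 (1273) and Cox4i1 (1040). Atp5a1 and Atp5b code for the alpha and beta subunits of the catalytic F1 head of the ATP synthase. Per kilobase of the principal transcript, the order was Atp5b (2828), Cox4i1 (2107), Atp5g3 (2022) and Atp5a1 (1988), so the leading set held Atp5a1, Atp5b and Cox4i1 on either length and its order depended on the length. The order of the 46 members per kilobase of principal transcript was close between groups, with a Spearman rho of 0.91 to 0.98 across members for any pair of groups. These members share libraries and are not independent.

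**Figure D1:**
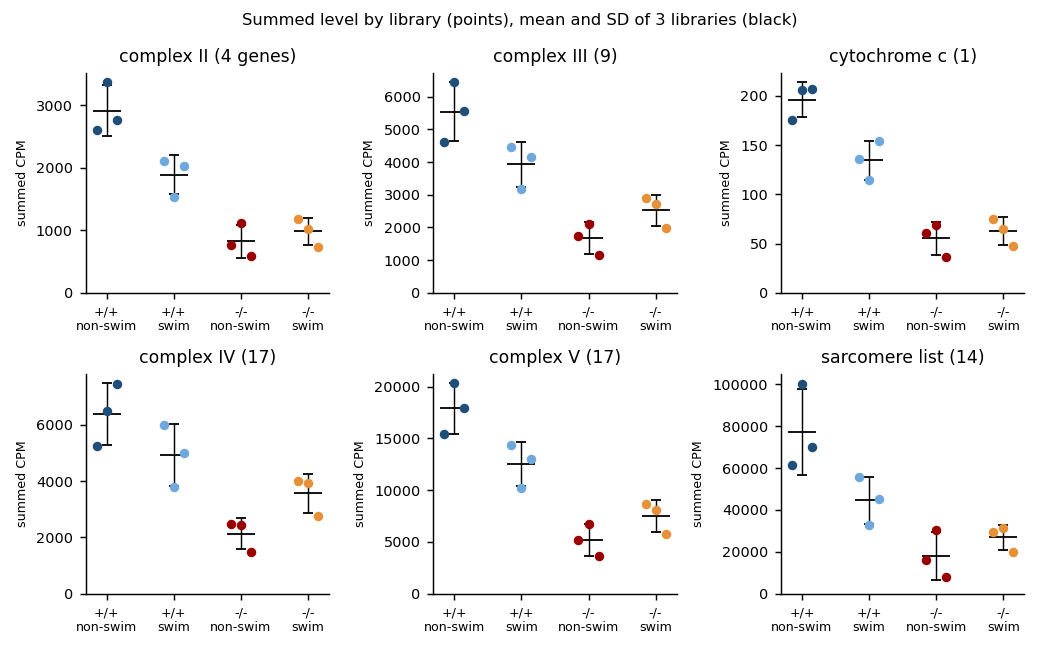
Summed level in CPM (vertical axis, from 0) of complexes II, III, IV and V, cytochrome c and the sarcomere list in each library (points) of the 4 groups (horizontal axis), with the mean and SD of 3 libraries in black. In every panel the 3 Des-/- non-swim libraries lie below the 3 Des+/+ non-swim libraries; for complex V they lie between 3610 and 6702 CPM, against 15413 to 20346.

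The first comparison asked how the members differed between genotypes in mice that had not swum. The transcripts of complexes II to V were lower in Des-/- hearts: 43 of the 46 tested members fell, where 18% of all genes tested were called lower and 14% higher with edgeR, and 0 members rose. The median log2 change was -1.58, against 0.039 over all genes tested. The fall covered the whole of complexes II (4 of 4), III (9 of 9) and V (17 of 17), cytochrome c and Cox7a2l. Of the 14 complex IV genes tested, 11 fell, and the 3 that were not called, Cox4i2, Cox6a1 and Cox8a, are each 1 of a pair of isoforms. The libraries of the groups did not overlap for the same 43 members, where 24.9% of all genes tested lay lower without overlap. In bulk RNA of isolated cells, fewer cardiomyocytes and less of these RNAs per cardiomyocyte cannot be told apart.

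Markers of cell types moved with this difference. All 14 sarcomere genes were called lower, with a median log2 change of -1.94, below the members' median. Among fibroblast markers 13 of 14 were called higher, and their summed level ran from 6699 to 8060 CPM in Des+/+ and from 13962 to 44619 CPM in Des-/- non-swim libraries. For macrophage markers 11 of 14 were called higher, with sums of 260 to 403 and 498 to 5591 CPM, and no gene of either list was at 0 in any library. Of 6 erythrocyte markers tested, 5 were called higher, with sums of 180 to 547 and 1471 to 4586 CPM. Of 14 genes that respond to cell isolation, 11 were called higher, with sums of 1826 to 2876 and 5159 to 10308 CPM. None of 12 endothelial markers was called (edgeR, 0 at an unadjusted p under 0.05; sums of 7624 to 9551 and 6584 to 10790 CPM). Of the remaining lists, 1 of 9 mural markers was called lower, 2 of 5 tested lymphocyte markers were called higher, and tested atrial genes (1 higher and 1 lower of 6) and brown fat genes (1 higher and 2 lower of 5) moved both ways. Of these 4 lists, Cd3g, Cd8a, Nkg7, Myl7, Sln, Bmp10, Ucp1, Elovl3 and Plin1 were at 0 in at least 1 library. The part of cell composition in the members' change was not tested.

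The scale used for the libraries mattered. When libraries were scaled to their sarcomere transcripts instead of all genes, 0 members were called lower and 16 higher, their median log2 change was 0.74, and that of all genes was 2.48. On that scale 12076 of the 13158 genes tested were called, nearly all higher. Relative to sarcomere transcripts, the 16 called members were Cox4i2, Cox6a1, Cox8a, Cox7a2, Cox7a2l, Uqcr10, Uqcr11, Uqcrh and 8 of complex V. With upper-quartile scaling 43 members were called lower, while the median of all genes moved from 0.039 to 0.14 and the share of called genes that were higher moved from 43.7% to 55.1%. Without the third Des-/- non-swim replicate, which stood apart, 42 members were still called lower with a median log2 change of -1.34. The member lost was Atp5k.

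**Figure D2:**
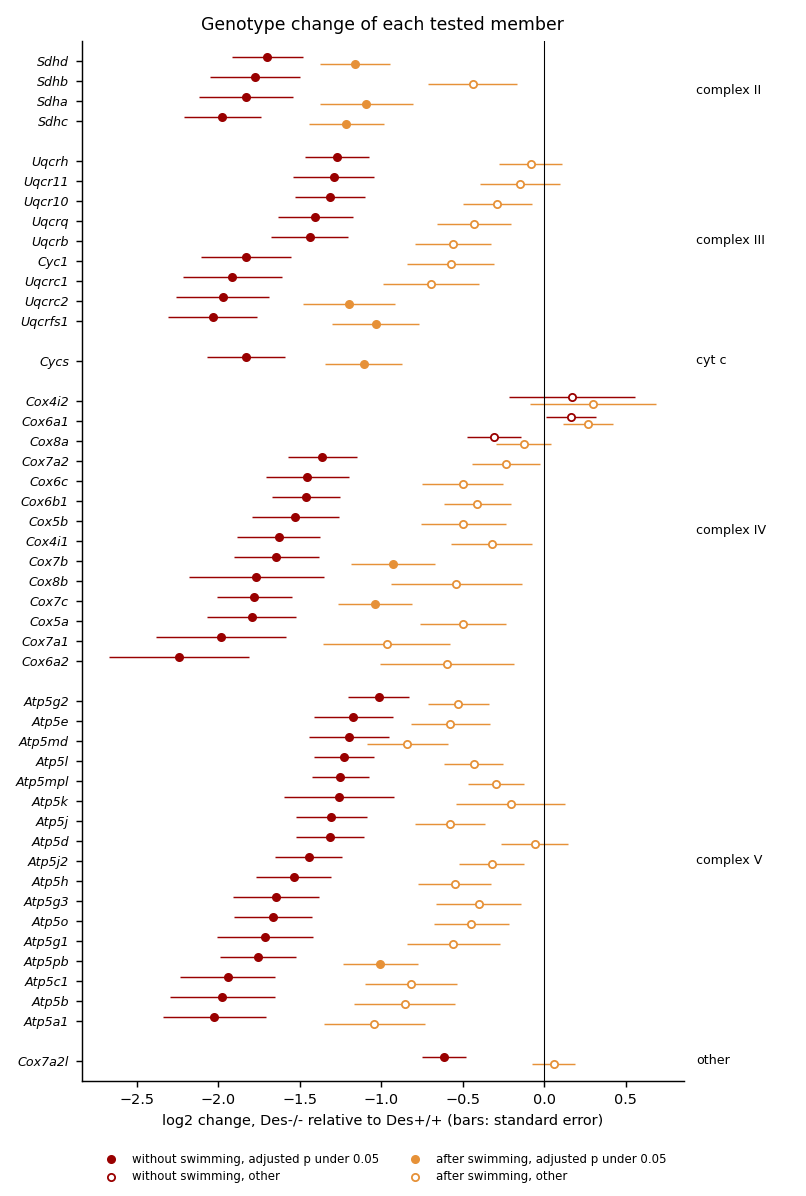
Log2 change of each of the 46 tested members (rows, grouped by complex) in Des-/- relative to Des+/+ libraries (horizontal axis, log2 scale), without swimming in red and after swimming in orange; bars are standard errors and filled points have an edgeR adjusted p under 0.05. Without swimming 43 points are filled and lie between -2.24 and -0.62; after swimming 9 are filled, and Cox4i2, Cox6a1 and Cox7a2l lie above 0.

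In complex II the change was even across the enzyme. Sdha, the flavoprotein that binds succinate, was at 1190, 1567 and 1223 CPM in the Des+/+ non-swim libraries and at 322, 543 and 258 CPM in the Des-/- non-swim libraries. The log2 change was -1.83 (SE 0.29, edgeR adjusted p 0.00131). Sdhc, 1 of the membrane anchors, fell most in the complex: its Des+/+ libraries held 570, 582 and 575 CPM, close together, and its Des-/- libraries 149, 176 and 115 CPM. Its log2 change was -1.97 (SE 0.23, edgeR adjusted p 8.2e-04), the smallest adjusted p of all members. The iron-sulfur subunit Sdhb (-1.77) and the other anchor, Sdhd (-1.70), lay beside them.

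In complex III the redox and core subunits and the small ones separated. The Rieske iron-sulfur protein, Uqcrfs1, which passes electrons from ubiquinol to cytochrome c1, was at 675, 947 and 776 CPM in Des+/+ and at 201, 252 and 133 CPM in Des-/- non-swim libraries. It had the most negative change of the complex, -2.03 on the log2 scale (SE 0.27, edgeR adjusted p 9.03e-04). The core proteins Uqcrc2 (-1.97) and Uqcrc1 (-1.91) and cytochrome c1 itself, Cyc1 (-1.83), followed. The small subunits Uqcrb, Uqcrq, Uqcr10 and Uqcr11 lay between -1.44 and -1.29. The hinge protein Uqcrh, which helps cytochrome c to dock, had the least negative change, -1.27 (SE 0.20, edgeR adjusted p 0.00125), with 340, 445 and 471 CPM against 189, 189 and 142. Cytochrome c (Cycs), the soluble carrier between complexes III and IV, was at 175, 206 and 207 against 60.9, 68.3 and 36.6 CPM and fell by 1.83 on the log2 scale.

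The ATP synthase ran from -2.02 to -1.02. The subunits of its F1 head and central stalk, Atp5a1 (-2.02), Atp5b (-1.97) and Atp5c1 (-1.94), lay at the lower end, whereas the delta and epsilon subunits of the same stalk, Atp5d and Atp5e, were at -1.31 and -1.17. Atp5a1 was at 4364, 5632 and 4745 CPM in Des+/+ and at 1102, 1736 and 788 CPM in Des-/- non-swim libraries (SE of the log2 change 0.32, edgeR adjusted p 0.00127). Peripheral stalk subunits, which hold the head still against the rotor, followed at -1.75 (Atp5pb), -1.66 (Atp5o), -1.54 (Atp5h) and -1.31 (Atp5j). Small subunits of the membrane part were at -1.45 for Atp5j2, -1.26 for Atp5k, -1.25 for Atp5mpl, -1.23 for Atp5l and -1.20 for Atp5md. The rotor ring is built of 1 protein made from 3 genes, which differ in their targeting sequences and not in the mature protein. Atp5g3, the most abundant of them, was at 1197, 1667 and 1521 against 509, 565 and 328 CPM. Atp5g1 held 336, 485 and 491 against 161, 158 and 81.7 CPM, and Atp5g2 only 52.2, 68 and 81.3 against 34.9, 31.5 and 33.3 CPM. Atp5g2 had the least negative change in complex V, -1.02 (SE 0.19, edgeR adjusted p 0.00264), with Atp5g3 at -1.65 and Atp5g1 at -1.71.

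Across the 46 members the genotype change was more negative for longer principal transcripts, with a Spearman rho of -0.44 and a Pearson r of -0.33. It was also more negative for members with higher levels in Des+/+ non-swim libraries (rho -0.73, r -0.40). The same libraries enter both that level and the change, which alone can make the correlation negative, so nothing is concluded from it. The correlations are descriptions across genes that share all libraries, not tests. The share of uniquely aligned reads that fell in no gene, a sign of RNA from introns or outside annotated genes, differed in spread between the groups: the Des+/+ non-swim value was 36.4% ± 2.71 (SD, n = 3) and the Des-/- non-swim value 45.2% ± 9.67 (SD, n = 3). Its part in the members' change was not tested.

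Complex IV showed the widest spread, and it lay between isoforms of the same subunit. For subunit 6A, the heart and muscle gene Cox6a2 (ENSMUSG00000030785, GRCm38 chromosome 7, 128205435 to 128206387, minus strand) was at 627, 964 and 1005 CPM in Des+/+ non-swim libraries and at 207, 268 and 74.3 CPM in Des-/- non-swim libraries. The groups did not overlap, and the log2 change of -2.24 (SE 0.43, edgeR adjusted p 0.00318) was the most negative of all members. The ubiquitous gene Cox6a1 (ENSMUSG00000041697, chromosome 5, 115345642 to 115348981, minus strand) was at 86.7, 89.4 and 112 CPM in the first group and at 126, 98.4 and 98.3 in the second. These ranges overlapped, and its log2 change was 0.17 (SE 0.15, edgeR adjusted p 0.436). Scaled to sarcomere transcripts, the change of Cox6a2 was -0.13 and that of Cox6a1 2.59.

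Subunit 8 showed a like split. Its heart and muscle gene Cox8b was at 241, 248 and 346 CPM against 115, 96.6 and 34 CPM, a log2 change of -1.77 (SE 0.41, edgeR adjusted p 0.00856). The ubiquitous Cox8a was at 73.5, 81.5 and 110 against 74.6, 64.9 and 74.5 CPM, and its log2 change of -0.31 (SE 0.17) was not called (edgeR adjusted p 0.182). The groups overlapped for Cox8a and not for Cox8b.

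For subunit 7A both genes fell. Cox7a1, the heart and muscle form, went from 260, 219 and 345 to 91.6, 84.3 and 33.2 CPM (log2 change -1.98, SE 0.40, edgeR adjusted p 0.0041). Cox7a2, the ubiquitous form, went from 202, 226 and 265 to 99.1, 103 and 67.3 CPM (log2 change -1.36, SE 0.21, edgeR adjusted p 0.0013). In subunit 4, the ubiquitous and here dominant Cox4i1 went from 1267, 1779 and 1791 to 590, 599 and 376 CPM (-1.63, SE 0.25, edgeR adjusted p 0.00128). The second isoform, Cox4i2, known for its expression in lung, was at 27.3, 16.4 and 36.5 against 39.3, 27 and 24.2 CPM, with a log2 change of 0.17 (SE 0.39, edgeR adjusted p 0.767). The direction of the Cox4i2 value turned to -0.085 without Des+/+ non-swim replicate 2 and to -0.069 without Des-/- non-swim replicate 1. For subunit 6B, Cox6b1 fell by 1.46 on the log2 scale, while the testis form Cox6b2 stayed between 0.35 and 1.7 CPM in all libraries, where the floor of 3 counts stood at 0.262 to 0.656 CPM. The remaining subunits Cox5a, Cox5b, Cox6c, Cox7b and Cox7c fell, with log2 changes between -1.80 and -1.45.

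The isoform ratio within a library removes the scaling between libraries, and its genotype difference was tested over both swimming states by exact permutation. The 6 pairs were tested for genotype and for swimming, 12 tests in all, and the smallest p that the arrangements allow is 0.005. The ratio of Cox6a2 to Cox6a1 was 7.22, 10.8 and 9.01 in Des+/+ non-swim, 6.34, 3.96 and 3.94 in Des+/+ swim, 1.64, 2.72 and 0.756 in Des-/- non-swim and 3.02, 2.74 and 1.97 in Des-/- swim libraries. Every Des-/- library lay below every Des+/+ library. The mean difference was -1.72 on the log2 scale, or a ratio of 0.304 relative to Des+/+ (two-sided exact permutation p 0.005, adjusted p 0.03). The ratio is one of CPM and not corrected for length, so only its change is read.

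The ratio of Cox7a1 to Cox7a2 was 1.29, 0.972 and 1.3 in Des+/+ non-swim and 0.925, 0.815 and 0.493 in Des-/- non-swim libraries. With swimming the values were 1.23, 1.15 and 1.38 in Des+/+ and 0.907, 0.794 and 0.514 in Des-/- libraries, again without overlap between the genotypes. Its difference was -0.76 on the log2 scale (exact permutation p 0.005, adjusted p 0.03). For Cox8b to Cox8a the ratio was 3.27, 3.05 and 3.15 against 1.55, 1.49 and 0.457 without swimming, and 3.17, 2.1 and 2.67 against 2.59, 2 and 1.41 after it, where the groups overlapped. That difference was -1.03 (exact permutation p 0.01, adjusted p 0.04). The ratio of Cox4i2 to Cox4i1 had a genotype difference of 1.19 on the log2 scale, higher in Des-/- libraries, which did not pass after adjustment (exact permutation p 0.02, adjusted p 0.06). The ring genes of the ATP synthase showed smaller values, -0.13 for Atp5g1 to Atp5g3 (exact permutation p 0.14, adjusted p 0.336) and 0.29 for Atp5g2 to Atp5g3 (exact permutation p 0.195, adjusted p 0.377). No pair passed for swimming, with exact permutation p from 0.22 to 0.855 and adjusted p from 0.377 to 0.855. The genotype difference of the 6A ratio was -2.56 without and -0.87 after swimming, and for subunit 8 it was -1.63 and -0.43; these differences between swimming states were not tested.

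The adjusted p of the Cox6a2 and Cox7a1 ratios rose to 0.06 when any Des+/+ non-swim library or Des+/+ swim replicate 1 or 3 was left out, and that of Cox8b to 0.06 or 0.08 without these or without Des-/- swim replicate 2 or 3. The adjusted p stayed at 0.03 to 0.04 for the other libraries. The differences stayed between -1.93 and -1.47 for Cox6a2, between -0.85 and -0.62 for Cox7a1 and between -1.18 and -0.74 for Cox8b. Cox4i2 to Cox4i1 passed only without Des-/- swim replicate 1 (1.30, adjusted p 0.045). Summed fibroblast markers were higher in each of the 6 Des-/- libraries (9249 CPM or more) than in any Des+/+ library (8060 CPM or less), and their part in the ratios was not tested.

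**Figure D3:**
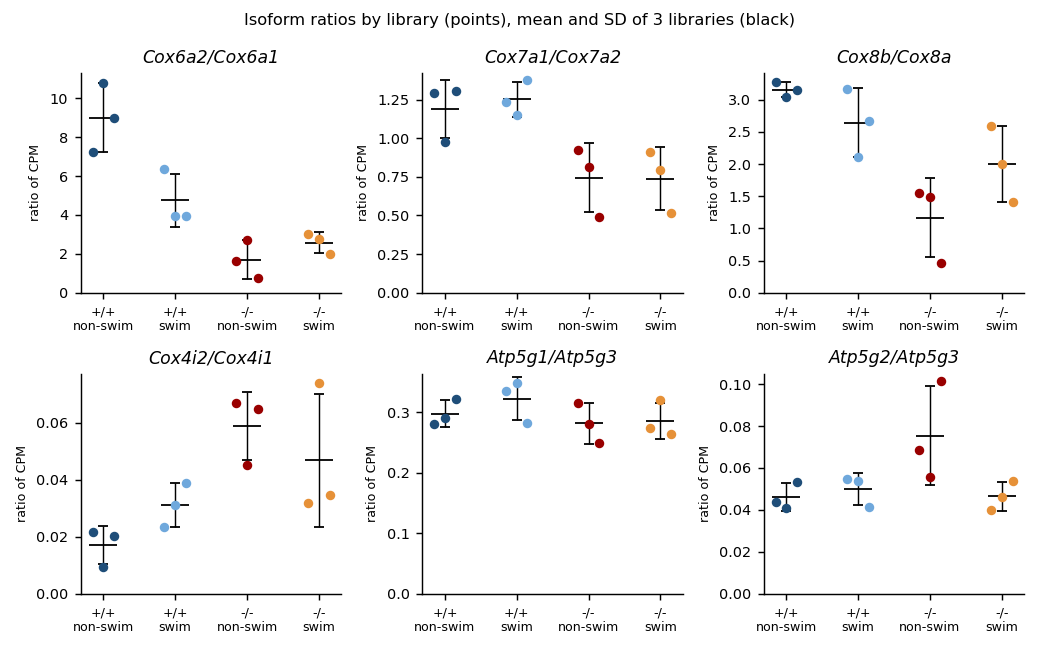
Ratio of CPM (vertical axis, from 0) for 6 pairs of isoform genes in each library (points) of the 4 groups (horizontal axis), with the mean and SD of 3 libraries in black. For Cox6a2 to Cox6a1 and Cox7a1 to Cox7a2 all 6 Des-/- libraries lie below all 6 Des+/+ libraries; the lowest points for Cox6a2, Cox7a1 and Cox8b, at 0.756, 0.493 and 0.457, are the same library, replicate 3 of Des-/- non-swim.

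Stretches upstream of the starts of isoform genes are shown because these genes differ in level and in their change within 1 subunit. They are from RefSeq promoters on GRCm38.p6, in which 37 of the 49 members had an entry. Atp5a1, Atp5mpl, Cox4i1, Cox4i2, Cox6a2, Cox6c, Cox8c, Cyc1, Sdhc, Uqcrb, Uqcrc2 and Uqcrq had none. Each is read 5′ to 3′ on the strand of its gene, and bases in annotated exons were left out. Capitals mark a match to 1 of the motifs named below, on either strand.
Cox7a1: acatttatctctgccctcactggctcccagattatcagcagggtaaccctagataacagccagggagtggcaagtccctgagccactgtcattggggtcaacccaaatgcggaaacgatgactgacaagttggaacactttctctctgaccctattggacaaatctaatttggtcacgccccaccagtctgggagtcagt
Cox7a2: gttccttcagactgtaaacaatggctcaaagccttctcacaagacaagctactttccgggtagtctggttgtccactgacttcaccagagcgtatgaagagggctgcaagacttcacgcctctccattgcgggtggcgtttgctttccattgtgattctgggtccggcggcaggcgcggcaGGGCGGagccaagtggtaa
Cox8b: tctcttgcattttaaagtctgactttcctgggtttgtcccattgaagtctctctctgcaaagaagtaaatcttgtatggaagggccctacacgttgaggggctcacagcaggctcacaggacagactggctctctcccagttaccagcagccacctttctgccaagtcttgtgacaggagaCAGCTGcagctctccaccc
Cox8a: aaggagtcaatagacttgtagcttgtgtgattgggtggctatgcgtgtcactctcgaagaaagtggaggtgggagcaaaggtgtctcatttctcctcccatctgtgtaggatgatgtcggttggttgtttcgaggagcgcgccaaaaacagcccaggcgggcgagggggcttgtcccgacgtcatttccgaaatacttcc
Cox6a1: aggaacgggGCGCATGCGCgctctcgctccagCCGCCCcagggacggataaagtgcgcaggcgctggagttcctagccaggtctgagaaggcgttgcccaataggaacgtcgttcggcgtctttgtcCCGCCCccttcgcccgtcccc

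The stretch of Cox7a1 lies at chr7:30183944-30184143 on the plus strand and that of Cox7a2 at chr9:79759879-79760078 on the minus strand. Those of Cox8b, chr7:140900447-140900646, Cox8a, chr19:7217617-7217816, and Cox6a1, chr5:115348982-115349129, are on the minus strand. Over the whole 300 bases of each promoter, from 250 before to 50 after the start, the heart and muscle genes held fewer CG pairs: Cox7a1 had 7 and Cox7a2 20, Cox8b 2 and Cox8a 19. Cox6a1 had 32. The median over the 37 members was 19, over 10494 promoters of tested genes 21, and over all 32851 RefSeq promoters it was 7.

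Both strands of these promoters were searched for 8 short motifs. The core of the site of nuclear respiratory factor 1, GCGCATGC, a regulator of many respiratory genes, was in 8 of 37 member promoters (21.6%), among them Cycs, Sdhb, Uqcr11, Uqcrc1 and Cox6a1, against 5.28% of the tested genes' promoters and 2.71% of all. In Cox6a1 it overlapped with itself on the other strand. The ETS core CCGGAAG, bound by GABP, was in 12 (32.4%, against 17.8% and 8.86%), with Cox6a1, Cox6b1 and Cox8a among them. The element TCAAGGTCA of the estrogen-related receptors was in 2, Atp5g3 and Sdhd (5.41%, against 0.238% and 0.423%). The Sp1 box GGGCGG was in 15 (40.5%, against 64.7% and 35.7%). The letters TATAAA of the TATA box, at any place in the 300 bases, were in 4, Atp5l, Atp5md, Cox7b2 and Cox8b (10.8%, against 7.35% and 13.6%). The E-box CAGCTG was in 2, Atp5b and Cox8b (5.41%, against 15.2% and 16.3%). The TATAAA match of Cox8b and the ETS matches of Cox8a and Cox6a1 do not lie within the stretches printed above. The YY1 core AAGATGGC was in 2 (5.41%, against 4.52% and 2.75%), and the MEF2 site TAAAAATA in 0, against 1.13% and 2.72%. A match describes letters and is not a bound site.

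After swimming the difference between genotypes covered fewer members. With edgeR 9 of 46 fell in Des-/- swim relative to Des+/+ swim libraries and 0 rose, where 5.57% of all genes tested were called lower and 5.01% higher. The median was -0.53, against 0.020 over all genes, and 43 of the 46 values were below 0. The libraries did not overlap for 23 members, all lower, where 18.6% of all genes lay so. Complex II held 3 of the 9, Sdha, Sdhc and Sdhd. Complex III held 2, Uqcrc2 and Uqcrfs1, complex IV held 2, Cox7b and Cox7c, and complex V held 1, Atp5pb. The other was cytochrome c.

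Sdhd, a membrane anchor of complex II, was at 267, 198 and 260 CPM in Des+/+ swim and at 123, 119 and 82.1 CPM in Des-/- swim libraries. Its log2 change, -1.16 (SE 0.21, edgeR adjusted p 0.013), had the smallest adjusted p. The other anchor, Sdhc, was at 415, 338 and 463 against 232, 166 and 126 CPM (-1.22, SE 0.23, edgeR adjusted p 0.0143). Cycs held 136, 114 and 154 against 75.1, 64.7 and 47.3 CPM (-1.11, SE 0.24, edgeR adjusted p 0.0189). For each of these 3 genes the groups did not overlap. Changes of the other called members were -1.20 for Uqcrc2, -1.09 for Sdha, -1.04 for Cox7c, -1.03 for Uqcrfs1, -1.01 for Atp5pb and -0.93 for Cox7b, with edgeR adjusted p from 0.0205 to 0.0428.

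Other members of the same complexes were not called. Sdhb, the partner of Sdha in the matrix arm, was at 486, 346 and 449 against 367, 338 and 239 CPM (-0.44, SE 0.27, edgeR adjusted p 0.291). Uqcrh was at -0.084, Uqcr11 at -0.15 and Atp5d, the delta subunit of the central stalk, at -0.057, with 447, 308 and 426 against 380, 418 and 337 CPM. Cox4i1 was at -0.32 and Cox6a2, which had moved most without swimming, at -0.60 (SE 0.41, edgeR adjusted p 0.349), with 738, 419 and 496 against 418, 431 and 245 CPM. Atp5a1 and Atp5md lay just outside the threshold, at -1.04 (edgeR adjusted p 0.0514) and -0.84 (edgeR adjusted p 0.0508). Across members the changes without and after swimming, from different libraries, had a Spearman rho of 0.74 and a Pearson r of 0.77, and the change after swimming was again more negative for longer principal transcripts (rho -0.50, r -0.49).

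This count of 9 rested on few libraries. It was 0 without Des+/+ swim replicate 3, 3 without Des+/+ swim replicate 1, 3 without Des-/- swim replicate 2, 2 without Des-/- swim replicate 3 and 14 without Des-/- non-swim replicate 3, which enters only through the shared spread. Sdhc and Sdhd remained in each of these but the first. DESeq2 called 13 members, the same 9 with Atp5a1, Atp5b, Atp5c1 and Atp5md, beside 2276 of the 13903 genes that it gave an adjusted p. With scaling to sarcomere transcripts 0 members were called, as were only 4 of all 13158 genes, and the members' median was 0.20, against 0.73 over all genes. Upper-quartile scaling moved the share of higher genes among all called ones from 47.3% to 67.5%. None of the 14 sarcomere genes was called after swimming (edgeR, 3 at an unadjusted p under 0.05), with a median of -0.57. Fibroblast markers were called higher for 4 of 14, with sums of 5725 to 7088 CPM in Des+/+ swim and 9249 to 17560 CPM in Des-/- swim libraries, and macrophage markers for 0 of 14 (0 also at an unadjusted p under 0.05), with sums of 309 to 390 and 283 to 1693 CPM. Of 14 genes that respond to cell isolation, 8 were called higher, with sums of 2275 to 2499 and 4213 to 7468 CPM. Reads in no gene made up 47.8% ± 2.31 (SD, n = 3) and 60.0% ± 3.95 (SD, n = 3). The part of these in the members' values was not tested.

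Within a genotype, swimming moved no member past the threshold. In Des+/+ hearts DESeq2 called 0 members, beside 790 of the 11138 genes that it gave an adjusted p. With edgeR 0 of 46 members were called, where 0.0912% of all genes tested were called. An unadjusted edgeR p under 0.05 was held by 10 members and by 2697 of all 13158 genes, a similar share. The median log2 change was -0.40, against -0.081 over all genes, and 44 of 46 values were below 0. The libraries did not overlap for 15 members, all lower after swimming, where 18.7% of all genes lay lower without overlap. These 15 were all of complex II, 5 of complex III, 5 of complex V and cytochrome c, and 0 of the 14 from complex IV. Sdha went from 1190, 1567 and 1223 to 941, 651 and 863 CPM (log2 change -0.70, SE 0.28, edgeR adjusted p 0.2), and Sdhd had the smallest adjusted p, 0.177, at -0.56. The sarcomere genes lay at a median of -0.77, with all 14 below 0 and 0 called (edgeR, 3 at an unadjusted p under 0.05). Erythrocyte markers lay at a median of 2.47 (0 of 6 called, 6 at an unadjusted p under 0.05), with sums of 180 to 547 CPM before and 1394 to 2180 CPM after swimming. Of 12 endothelial markers 11 lay above 0 (0 called, 4 at an unadjusted p under 0.05), with sums of 7624 to 9551 and 10292 to 14890 CPM, and reads in no gene went from 36.4% to 47.8%. The part of these in the members' values was not tested.

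In Des-/- hearts DESeq2 called 8 members, all higher, beside 333 of the 12517 genes that it gave an adjusted p. With edgeR 0 of 46 members were called, where 0.0228% of all genes were called. An unadjusted edgeR p under 0.05 was held by 22 members and by 2201 of all 13158 genes. The median log2 change was 0.60, against -0.013 over all genes, and 45 of 46 values were above 0. The 17 members whose libraries did not overlap were all higher after swimming, where 10.4% of all genes lay higher without overlap. Cox4i1 went from 590, 599 and 376 to 1150, 1084 and 848 CPM (0.98, SE 0.25, edgeR adjusted p 0.186), and Atp5d from 222, 217 and 169 to 380, 418 and 337 CPM (0.90, SE 0.21, edgeR adjusted p 0.176). The 17 were 8 of complex V, 4 of complex III, 4 of complex IV and Cox7a2l. Complex II had 0 of its 4 among them: Sdhd was at -0.021, with 106, 135 and 88.3 CPM before and 123, 119 and 82.1 CPM after swimming, and Sdha at 0.039. Cycs lay at 0.18 (SE 0.23, edgeR adjusted p 0.731). The 15 and the 17 members shared 1, Atp5j2, the f subunit of the ATP synthase. The sarcomere genes were at a median of 0.57 and the fibroblast genes at -0.86, with 0 of 14 called in each list (edgeR, 2 and 8 at an unadjusted p under 0.05), and their part was not tested. Replicate 3 of the Des-/- non-swim libraries had the lowest value for all of the 17 but Cox7a2l, and without it the members' median was 0.42.

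**Figure D4:**
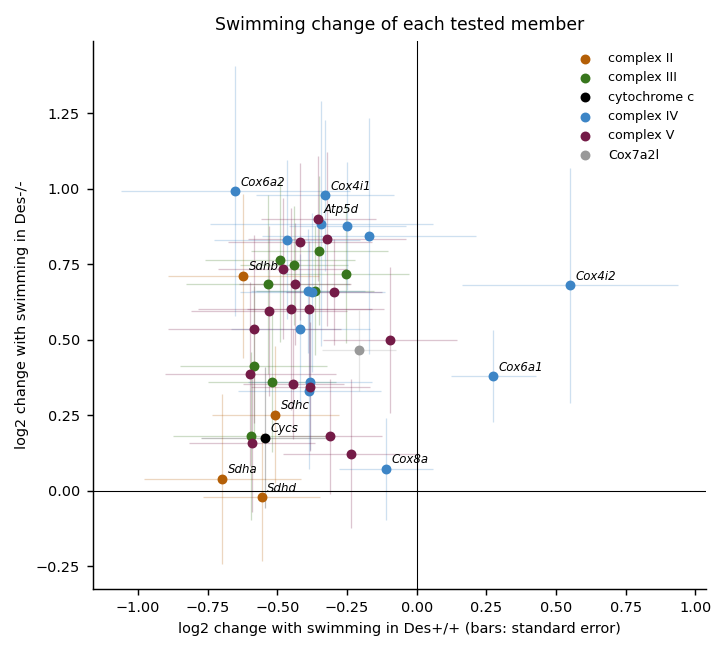
Log2 change with swimming in Des+/+ (horizontal axis) and in Des-/- libraries (vertical axis) of each of the 46 tested members, coloured by complex, with standard errors as bars. Most points lie left of 0 and above 0; Cox4i2 and Cox6a1 alone lie right of 0, Sdhd alone lies below 0, and none of the values was called with edgeR.

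The difference between the swimming changes of the genotypes was tested as an interaction. All 46 members had a positive value, with a median of 0.99 against 0.035 over all genes, and 34 had an unadjusted p under 0.05. With edgeR 0 were called, as for all genes tested (0%; 2148 of 13158 at an unadjusted p under 0.05), and the smallest adjusted p among members was 0.199. DESeq2 called 15 members, all positive, beside 318 of the 8037 genes that it gave an adjusted p. The highest value was that of Cox6a2, 1.64 (SE 0.58, edgeR adjusted p 0.226), and the lowest were those of Cox6a1 (0.11) and Cox4i2 (0.13). The 14 sarcomere genes were also all positive, with a median of 1.36. The 6 tested erythrocyte markers were all negative, with a median of -3.54 (0 called, 6 at an unadjusted p under 0.05), as were the 14 macrophage markers, with a median of -1.42 (0 called, 0 at an unadjusted p under 0.05). Their part in the members' values was not tested. Scaled to sarcomere transcripts, the members' median turned to -0.59, with that of all genes at -1.70.

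Genes that work with the complexes were compared by lists. The list of complex I, the entry point for electrons from NADH, moved in the same direction. It includes Ndufa4 (-1.50 without swimming), which is named for complex I but is a subunit of complex IV. All 37 of 37 tested genes of the list fell without swimming, with a median of -1.44 and values from -2.09 to -0.94. After swimming 5 fell, with a median of -0.45. Of 36 tested assembly factors of complexes II to V, 28 fell without swimming, 0 rose and the median was -0.92. After swimming 10 fell. Lyrm7, which inserts the Rieske protein into complex III, went from 9.08, 10.2 and 9.65 to 1.38, 2.49 and 1.49 CPM without swimming (log2 change -2.43, SE 0.31, edgeR adjusted p 8.52e-04). Higd1a, a small inner membrane protein tied to complex IV, fell by 1.17. A further list held 8 carriers, channels and creatine kinases that supply the ATP synthase or take up its product. Of these, 7 fell without swimming (median of the list -1.53) and 5 after swimming (median -0.62), and 0 rose. Values ran from -2.27 to 1.43 without and from -1.33 to 1.73 after swimming, with 1 gene above 0 each time. Among those that fell were Vdac3 (-1.37 and -0.61) and Vdac2 (-1.23 and -0.62), channels of the outer membrane.

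Of 19 transcription regulators of respiratory genes, 9 fell and 0 rose without swimming, with a median of -0.72, nearer to 0 than that of the members. Esrra, the estrogen-related receptor alpha, was at 173, 205 and 184 CPM in Des+/+ and at 65.3, 71.9 and 53.4 CPM in Des-/- non-swim libraries (log2 change -1.56, SE 0.18, edgeR adjusted p 7.87e-04), and these groups did not overlap. Tfb2m, a factor of mitochondrial transcription, fell by 1.52 without and by 1.11 after swimming. Among the other factors whose motifs were searched for, the related receptors Esrrb and Esrrg fell (-2.23 and -2.24 on the log2 scale), as did the GABP subunit Gabpa (-0.40, edgeR adjusted p 0.047). Nrf1 was at 0.23 (edgeR adjusted p 0.318), Sp1 at 0.075 and Yy1 at -0.11 without swimming, and none of these was called. Ppargc1a, the coactivator PGC-1 alpha, chosen for mention after its values were seen, had a mean of 66.9 CPM in Des+/+ non-swim, 168 in Des+/+ swim, 14.1 in Des-/- non-swim and 73.3 in Des-/- swim libraries. Its swimming change was 1.33 in Des+/+ (edgeR adjusted p 0.176) and 2.39 in Des-/- libraries (edgeR adjusted p 0.164), neither called.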

How the data were processed

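Gene counts of 12 mouse libraries in 4 groups of 3 were used, with groups taken from the sample labels. The deposited files held unnormalised gene counts, made by the authors from 100 bp single-end reads aligned to GRCm38 with HISAT2 2.2.1 and counted with HTSeq-count in reverse-strand mode. HTSeq-count drops reads that align to several places, so genes with processed pseudogenes may be counted low. The study's methods name a directional library kit and the labels name a different kit, so whether the libraries kept the strand is not settled. Positions, strands and lengths came from GENCODE M21.

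Tests used edgeR 4.0.16 under R 4.3.3. The filterByExpr filter kept 13158 genes, TMM scaled the libraries, and the 12 libraries entered a single fit with a mean for each of the 4 groups, which left 8 residual degrees of freedom. Quasi-likelihood tests were made for 5 contrasts, with Benjamini-Hochberg adjustment over all genes tested, and called means an adjusted p under 0.05. "Fell" and "rose" are used of called genes. CPM are relative to the TMM-scaled total, and 3 counts, the floor, were 0.262 to 0.656 CPM, which covers counting error alone. P-values measure the spread between pools of mice. Isoform ratios, of counts plus 0.5, were tested two-sidedly by exact permutation of genotype within swimming state, or the reverse, over 400 arrangements, adjusted over 12 tests. The count procedure and the ratio test were checked on simulated data. The members and lists were chosen with earlier results of these data known.

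Members named were, by rule, those of highest level per length and lowest and highest genotype change in each complex, all genes of isoform pairs, members called in another contrast and those of opposite sign to their complex, with the 2 smallest p-values of each list of partners; any other was chosen after its values were seen. Alternatives were other scalings, no filter, DESeq2 1.42.0, only the libraries compared, a replicate block, the study's own filter and leaving out each library. Length of the principal transcript and the promoter backgrounds were added after the data were seen. The reported tests did not pair libraries by replicate number, and the replicate block, an alternative only, applied these numbers to every contrast. Only between the Des-/- non-swim and Des-/- swim groups was every same-numbered correlation over 0.1 (0.374, 0.343 and 0.608). Replicates 1 and 2 correlated about as well crosswise there (0.318 and 0.323). Elsewhere at least 1 correlation was under 0.1.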

Additional observations from a re-analysis of the deposited data

Results flagged for a closer look

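The share of uniquely aligned reads that fell in no gene is a value outside the comparisons, and its lowest library in 2 groups lay above the highest Des+/+ non-swim library (39.3%). It averaged 47.8% in Des+/+ swim and 60.0% in Des-/- swim libraries, against 36.4% in Des+/+ non-swim libraries. In Des-/- non-swim libraries it ran from 34.2% to 52.3%.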

How the results depend on the processing

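Of the alternative counts of called members, 86 stayed within 1.5 times the reported count and 12 did not. A count of 0 where 0 was reported was taken as unchanged, which held for nearly all alternatives of the swimming contrasts and the interaction. The total of 86 therefore says little on how stable the other counts were. For genotype after swimming, 5 of the 12 counts with 1 library left out did not stay within that range. Scaling to sarcomere transcripts gave 16 members called, all higher, for genotype without swimming and 0 for genotype after swimming, where 12076 and 4 of all 13158 genes were called. DESeq2 called 8 members for swimming in Des-/- and 15 for the interaction. The study's filter is an unadjusted p with a minimum change and level, which the paper describes for its DESeq2 output. Used here on edgeR values, it passed 15 for genotype after swimming, 2 for swimming in Des+/+ and 20 for swimming in Des-/-. The share of all genes passing it is not given, so these counts cannot be read against a background. For these contrasts in turn, an unadjusted edgeR p under 0.05 was held by 21, 10 and 22 members. Over all 13158 genes it was held by 4009, 2697 and 2201. With 1 library left out, members called ranged from 42 to 43 for genotype without swimming and from 0 to 14 after swimming, and stayed at 0 for the other contrasts.

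Over all genes, DESeq2 called 2276 for genotype after swimming (edgeR 1392), 790 and 333 for swimming in Des+/+ and Des-/- (12 and 3) and 318 for the interaction (0). For genotype after swimming, 74 genes were called without Des+/+ swim replicate 3 and 2142 without Des-/- non-swim replicate 3.

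For named members without swimming, scaling to sarcomere transcripts turned the log2 change of 22 to a value above 0, since that scale follows transcripts that fell more. These were Sdhb 0.50, Sdhc 0.35, Sdhd 0.66, Sdha 0.43, Uqcr11 1.02, Uqcrfs1 0.26, Uqcrh 1.11, Uqcrc2 0.28, Cycs 0.44, Atp5a1 0.21, Atp5g1 0.56, Atp5g2 1.46, Atp5g3 0.67, Atp5pb 0.57, Cox4i1 0.70, Cox6b1 0.88, Cox7a1 0.16, Cox7a2 0.96, Cox7b 0.66, Cox7c 0.58, Cox8a 2.18 and Cox8b 0.37. With 1 library left out, Cox4i2 ranged from -0.085 to 0.46.

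The replicate block changed no count of called members. It gave genotype differences of the same size for the isoform ratios, -1.72 for Cox6a2, -0.76 for Cox7a1 and -1.03 for Cox8b, with an adjusted p of 0.125, the smallest that its fewer arrangements allowed for these pairs. With 1 library left out, genotype differences ranged from -1.93 to -1.47 for Cox6a2, from -0.85 to -0.62 for Cox7a1, from -1.18 to -0.74 for Cox8b and from 0.99 to 1.30 for Cox4i2. Swimming differences ranged from -0.34 to 0.12 for Cox6a2 and from -0.094 to 0.16 for Cox7a1. Members not called after swimming are not shown to be equal between groups. Cox6b2, Cox7b2 and Cox8c were too low to test at this depth.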
